A study of Mus musculus with 8 samples.

Results

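The members are the small nucleolar RNAs (snoRNAs) and small Cajal body RNAs (scaRNAs) that ribosome footprint libraries of mouse brain counted most often. A gene is a member if its biotype is snoRNA or scaRNA and its mean over the 8 footprint count columns is at least 5. The rule finds 92 genes of 1558 with either biotype and of 54532 genes in the table. They were chosen by their footprint counts, so their levels are given as a description, without a test. By name, 35 members are box C/D snoRNAs (Snord), 7 are box H/ACA snoRNAs (Snora) and 9 are scaRNAs. The other 41 have the biotype snoRNA but a name that gives no class, mostly predicted genes with a Gm name (36 of 41), and are called unclassed here. RefSeq gives the unclassed members Rnu73b and Gm22486 the symbols Snord73b and Snord94 at the same positions.

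The libraries were made from brain of 3-month-old male mice labelled Nsun5-KO (KO, 4 libraries) or wild type (WT, 4 libraries). The protocol names 5 mice of each of the 2 genotypes from one litter and does not say which mouse gave which library. It gives no allele, promoter or Cre for the knockout. Each library number has a footprint library, made from RNA that ribosomes protected from nuclease and that was freed of rRNA and cut from a gel, and an mRNA library counted in the same table. The labels give the molecule as polyA RNA. The p-values below set the difference between KO and WT against the spread between these libraries.

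Box C/D snoRNAs guide ribose methylation and box H/ACA snoRNAs guide pseudouridylation of ribosomal RNA in the nucleolus, each by base pairing with its target within a protein complex. ScaRNAs carry the same boxes and guide modification of spliceosomal RNAs in Cajal bodies. Most mammalian snoRNAs are cut from introns of host genes, and a few guide no modification but take part in cleaving the precursor of ribosomal RNA. Nsun5, the gene knocked out here, encodes a protein enzyme that methylates a cytosine of large-subunit ribosomal RNA without a guide snoRNA. None of these RNAs is translated, so a count on one in a footprint library is a count of RNA fragments that came through the preparation, not a measure of protein synthesis.

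Nsun5 mRNA did not separate the groups, with 102, 124, 83 and 110 counts in KO libraries and 91, 82, 103 and 109 in WT libraries (log2 fold change 0.13 ± 0.15 SE, edgeR adjusted p = 0.801). These counts cover the whole gene, so they do not check the genotype labels, and KO and WT below mean the libraries labelled so. Footprint libraries held 586392 to 1296876 gene counts in KO and 1201263 to 3493841 in WT, and mRNA libraries 16210943 to 17829523 in KO and 15642086 to 17378608 in WT. MicroRNAs took 24.6 to 60.3% of the counts of KO and 23.0 to 55.0% of the counts of WT footprint libraries. All 10 brain marker genes were tested in both kinds of library and none was called by edgeR, while DESeq2 called 1 of them, Snap25, in the mRNA libraries. In the mRNA libraries all KO libraries lay below all WT libraries for Mbp, a gene of myelin, and above them for Snap25, Syt1 and Slc17a7, genes of neurons. The part of these markers in the results on members was not tested. Of 8 genes typical of other tissues 5 were tested in the mRNA libraries and 1, Hba-a1 of red blood cells, in the footprint libraries. None was called by edgeR. Footprint counts over the 8 libraries were 150 for Hba-a1, 64 for Lyz2, 56 for Alb, 19 for Hbb-bs and 11 for Myh6. Ckm had 7, Apoa1 6 and Ins2 of pancreas 0. Alb mRNA averaged 8.18 ± 12.3 CPM in KO and 0.887 ± 0.567 CPM in WT libraries (SD). Its groups overlapped (edgeR unadjusted p = 0.0234, adjusted p = 0.405). Levels are given as CPM, the usual per-library scaled count, here over the TMM-scaled library size. TMM factors ran from 0.662 to 1.46 over KO and from 0.782 to 1.47 over WT footprint libraries.

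Named box C/D genes were members more often than the other classes. They made up 35 of 98 annotated (35.7%), against 7 of 42 box H/ACA genes (16.7%), 9 of 53 scaRNA genes (17.0%) and 41 of 1365 unclassed genes (3.00%). Most annotated genes were listed at 0: 1367 of 1558 had no count in any of the 8 footprint libraries, and 1259 had none in all 16 libraries. Among genes inside a host gene on the same strand 77.5% (548 of 707) were at 0 in the footprint libraries. Outside any host 96.2% (819 of 851) were, most of them unclassed. Unclassed genes were at 0 in 443 of 540 inside and 801 of 825 outside a host, and scaRNA genes in 20 of 33 and 17 of 20. The order was the other way for box C/D genes (58 of 95 inside, 0 of 3 outside) and box H/ACA genes (27 of 39, 1 of 3). How reads on overlapping genes or on several copies were counted is not given in the sources used here, so a gene listed at 0 is not shown to be silent.

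The members just inside the threshold were Gm22888, Gm23346 and Snord66, with mean counts of 6, 6.125 and 6.25. Gm22858, AF357399 and Snord42b lay just outside it, at 4.375, 4.375 and 4.25. Of the 92 members 84 lie within a host gene and 8 do not. These 8 include Snord118 and Snord13, which act in rRNA maturation and are transcribed from promoters of their own, as well as Snord104 and Scarna2.

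Members differed widely in level per length. Box C/D members had a median of 528 footprint CPM per kilobase of annotated length (range 46.1 to 15936), scaRNA members 331 (19.6 to 1610), unclassed members 218 (23.0 to 67949) and box H/ACA members 192 (19.99 to 3111). Annotated lengths ran from 64 to 238 bases in box C/D, 128 to 184 in box H/ACA and 70 to 414 in scaRNA members. The plot of level against length shows that the 3 highest members are 69 to 75 bases long. The lowest are longer, with Scarna13 (275 bases) at 19.6 and Snora23 (184 bases) at 19.99 CPM per kilobase, and the lowest box C/D member, Snord66 (75 bases), stood at 46.1. A single gene held 30.8% of the 191978 counts on members, the top 3 held 49.4% and the top 10 held 68.3%.

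**Figure D1:**
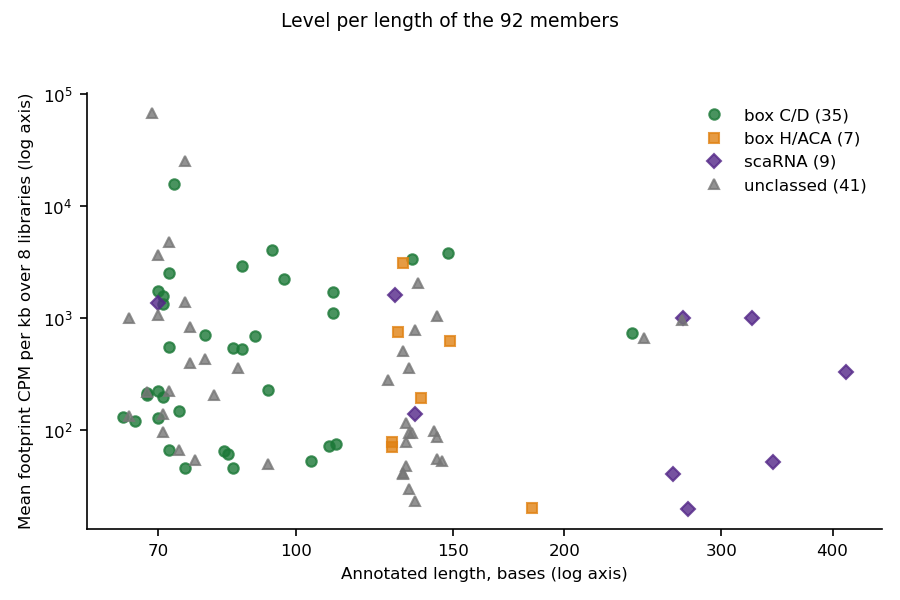
Mean footprint CPM per kilobase over the 8 libraries (log axis) of each of the 92 members against its annotated length in bases (log axis), by class. The highest point, AF357428, is 69 bases long and stands at 67949 CPM per kilobase, while box H/ACA members sit at 128 to 184 bases and reach at most 3111.

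Among box C/D members Snord85 stood first. It had 1707, 517, 1597 and 1169 CPM in KO libraries 1 to 4, against 697, 845, 541 and 2233 CPM in WT libraries 1 to 4. Libraries of both genotypes were high and low, and the groups overlapped. Its mean was 15936 CPM per kilobase, and the fitted log2 fold change of KO over WT was 0.21 ± 0.44 SE (edgeR adjusted p = 0.974). In whole brain, fewer cells that make an RNA and less of it per cell cannot be told apart.

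The next box C/D members by level were hosted by ribosomal protein genes or had no host. Snord83b, within Rpl3, a large-subunit protein gene, had 445, 318, 799.6 and 365 CPM in KO libraries 1 to 4, against 376, 133, 161 and 465 CPM in WT libraries 1 to 4. Snord15a, within Rps3, a small-subunit protein gene, had 441, 625, 844 and 679 CPM in KO libraries 1 to 4, against 874, 177, 342 and 537 CPM in WT libraries 1 to 4. The groups overlapped for both genes. Snord118, needed for maturation of large-subunit rRNA and without a host, had 769.6, 294, 671 and 541 CPM in KO libraries 1 to 4, against 422, 182, 154 and 595 CPM in WT libraries 1 to 4. KO libraries 1 and 3 lay above every WT library and KO library 2 below 2 of them. Its log2 fold change was 0.75 ± 0.40 SE with an edgeR adjusted p of 0.881.

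Snord7, within AA465934, had 161, 206, 390.2 and 341 CPM in KO libraries 1 to 4, against 227, 139.9, 96.98 and 158 CPM in WT libraries 1 to 4, so 2 KO libraries exceeded every WT library. Snord49a, within the noncoding gene 2410006H16Rik, had 283, 98.2, 379 and 217 CPM in KO libraries 1 to 4, against 126, 66.1, 92.6 and 198 CPM in WT libraries 1 to 4, and KO library 2 lay among the WT libraries. Fitted log2 fold changes were 0.82 ± 0.29 SE for Snord7 and 1.002 ± 0.37 SE for Snord49a, with edgeR adjusted p of 0.863 and 0.875. The others of the 10 highest, Snord87, Snord8, Snord17 and Snord89, had fitted differences between 0.21 and 0.58 on the log2 scale, all with overlapping groups. At the low end Snord13, which helps guide acetylation of small-subunit rRNA, averaged 4.25 ± 4.10 CPM in KO libraries and 6.68 ± 5.23 CPM in WT libraries (SD, n = 4 each). It was listed at 0 in KO library 3, where 3 counts correspond to 5.77 CPM.

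Box H/ACA members were led by Snora41 (chromosome 1, 63179004 to 63179135, plus strand, mm10, the build of all coordinates here), hosted by Eef1b2, a subunit of the complex that reloads an elongation factor with GTP. It had 614, 227, 379 and 354 CPM in KO libraries 1 to 4, against 120.1, 227, 359 and 1004 CPM in WT libraries 1 to 4. WT library 4 was the highest and WT library 1 the lowest of all 8. Snora31, hosted by Tpt1, the gene of the translationally controlled tumour protein, had 181, 55.4, 106 and 79.5 CPM in KO libraries 1 to 4, against 46.4, 88.1, 77.95 and 146 CPM in WT libraries 1 to 4. Snora62, hosted by Rpsa, a small-subunit protein gene, had 111, 55.4, 125 and 66.7 CPM in KO libraries 1 to 4, against 61.7, 60.5, 40.99 and 224 CPM in WT libraries 1 to 4. For Snora62 WT library 4 stood well above the other WT libraries, and without it the fitted log2 fold change became 0.69 in place of −0.15 ± 0.46 SE.

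Snora47 (host Zbed3) had 72.1, 19.5, 19.2 and 23.6 CPM in KO libraries 1 to 4, against 16.99, 24.5, 12.4 and 23.4 CPM in WT libraries 1 to 4, with KO library 1 alone above the rest. Snora35 lies in Htr2c, the serotonin receptor gene, and is known from brain. It averaged 11.7 ± 7.38 CPM in KO libraries and 6.33 ± 2.64 CPM in WT libraries (SD, n = 4 each), with overlapping groups. Snora20, hosted by the chaperonin gene Tcp1, averaged 10.9 ± 8.83 CPM in KO libraries and 8.98 ± 8.45 CPM in WT libraries. No box H/ACA member had an unadjusted p under 0.05.

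The 9 scaRNA members were led per length by Gm25492 and Scarna9. Gm25492, a scaRNA by biotype (chromosome 5, 135053988 to 135054116, minus strand), lies in Bud23, which encodes a small-subunit rRNA methyltransferase, 316 kb from Nsun5 on the same chromosome. It had 426, 112, 461 and 156 CPM in KO libraries 1 to 4, against 105, 140.5, 169 and 91.2 CPM in WT libraries 1 to 4. KO libraries 1 and 3 lay above every WT library, and KO libraries 2 and 4 lay within the WT range. Scarna9, within Cep295 and known as a guide for a spliceosomal RNA, had 54.97, 64.4, 386 and 90.3 CPM in KO libraries 1 to 4, against 127, 11.8, 11.7 and 18.1 CPM in WT libraries 1 to 4. KO library 3 and WT library 1 each stood well above the others of their genotype.

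Scarna10, within the condensin gene Ncapd2, had 277, 202, 625 and 385 CPM in KO libraries 1 to 4, against 361, 144, 194 and 434 CPM in WT libraries 1 to 4. Gm25395 and Scarna6 share the host Atg16l1, an autophagy gene. Gm25395 averaged 321 ± 138 CPM in KO libraries and 227 ± 137 CPM in WT libraries, and Scarna6 12.2 ± 8.19 CPM in KO libraries and 9.17 ± 8.47 CPM in WT libraries. Scarna2, a scaRNA with no host here, had 182, 87.6, 246 and 127 CPM in KO libraries 1 to 4, against 118, 53.7, 56.4 and 225 CPM in WT libraries 1 to 4. KO library 2 and WT libraries 2 and 3 were low for Scarna2. The remaining 3, Gm23751 (in Chd4), Gm22009 (in Kpna4) and Scarna13 (in the noncoding host Snhg10), had 138, 52.1 and 19.6 CPM per kilobase.

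Unclassed members held 58.5% of the member counts, and most of that came from a stretch of chromosome 12. Between the start of Meg3 and the end of Mirg (chromosome 12, 109541001 to 109749460, plus strand), an imprinted region with several noncoding RNAs and tandem small RNAs, 23 snoRNA genes are annotated. Of these 9 had a footprint count and 5 were members, with 44.7% of all member counts. These genes were singled out after their values were seen. They are 69 to 75 bases long.

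AF357428 (chromosome 12, 109679945 to 109680013, plus strand) had 3028, 3522, 10085 and 4427 CPM in KO libraries 1 to 4, against 5096, 1671, 1882 and 7797 CPM in WT libraries 1 to 4. AF357341 (chromosome 12, 109681519 to 109681593, plus strand) had 766, 1042, 6439 and 1341 CPM in KO libraries 1 to 4, against 2319, 136, 232 and 2789 CPM in WT libraries 1 to 4. KO library 3 was the highest for both, WT libraries 1 and 4 came next, and the genotypes overlapped. The count ratio of AF357341 to AF357428 was 0.253, 0.296, 0.638 and 0.303 in KO libraries 1 to 4, against 0.455, 0.0815, 0.123 and 0.358 in WT libraries 1 to 4. AF357341 varied 47.3-fold over the 8 libraries, while AF357428 varied 6.04-fold.

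DQ267102, inside the noncoding gene Rian, had 603, 189, 331 and 331 CPM in KO libraries 1 to 4, against 219, 288, 283 and 517 CPM in WT libraries 1 to 4, a 3.19-fold range. Gm23736, between AF357428 and AF357341, had 100.2, 49.6, 76.9 and 54.95 CPM in KO libraries 1 to 4, against 44.2, 43.4, 80.1 and 393 CPM in WT libraries 1 to 4, and here WT library 4 was the highest and KO library 3 was not. Gm25854 averaged 18.7 ± 9.19 CPM in KO libraries and 13.6 ± 8.90 CPM in WT libraries. The plot of these 5 genes shows that libraries did not keep a common order even within the region. Rian footprints themselves averaged 185 ± 57.9 CPM in KO libraries and 117 ± 31.0 CPM in WT libraries (edgeR adjusted p = 0.875).

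**Figure D2:**
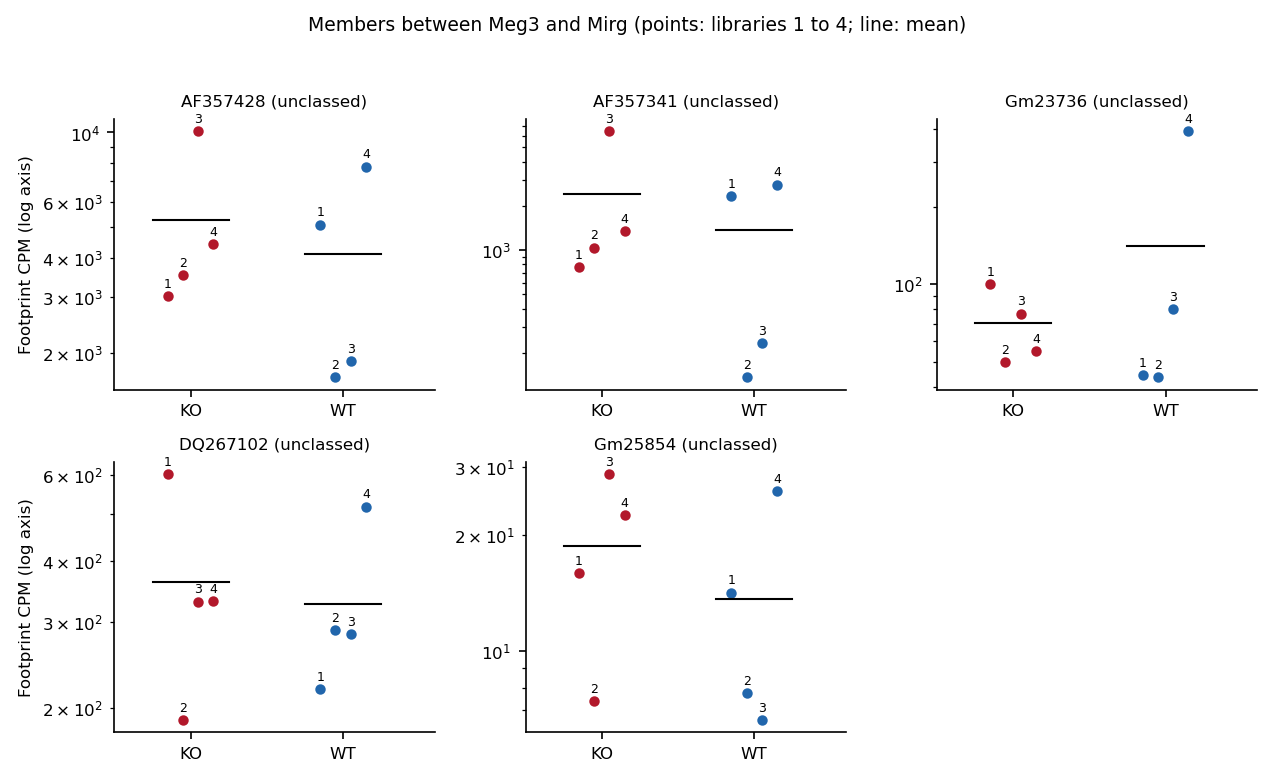
Footprint CPM (log axis) of the 5 members between Meg3 and Mirg in KO (left) and WT (right) libraries, with points numbered by library and a line at the mean. KO library 3 is the highest for AF357428 and AF357341, and WT library 4 for Gm23736.

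The other imprinted snoRNA region known from brain was listed with few counts. How reads on several copies were counted is not given, so these counts do not show that its RNAs are scarce. Within the gene body of Snhg14 on chromosome 7, 208 snoRNA genes are annotated, 16 of which had a footprint count and 2 of which were members, Gm25934 and Gm26097, with 0.288% of member counts. Gm25934 averaged 31.3 ± 5.49 CPM in KO libraries and 37.1 ± 18.9 CPM in WT libraries, and Gm26097 7.10 ± 4.30 CPM in KO libraries and 2.11 ± 1.53 CPM in WT libraries. All 17 annotated Snord116 copies, Snord64 and Snord107 were listed at 0 in the footprint libraries, with 1 count in all in the mRNA libraries. No gene of the table, in this region or in that of chromosome 12, carries a name of the families Snord113, Snord114 or Snord115. Whether genes with other names belong to these families was not tested.

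Summed over members, box C/D genes took 0.452 ± 0.0962% of footprint counts in KO libraries and 0.404 ± 0.180% in WT libraries (SD, n = 4 each). The share on box H/ACA members was 0.0564 ± 0.00958% in KO and 0.0636 ± 0.0446% in WT. ScaRNA members took 0.122 ± 0.0562% in KO and 0.0935 ± 0.0560% in WT, and unclassed members 0.920 ± 0.549% in KO and 0.850 ± 0.573% in WT. Genotypes overlapped in each class. All members together ran from 0.997 to 2.56% in KO and from 0.608 to 2.13% in WT libraries.

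**Figure D3:**
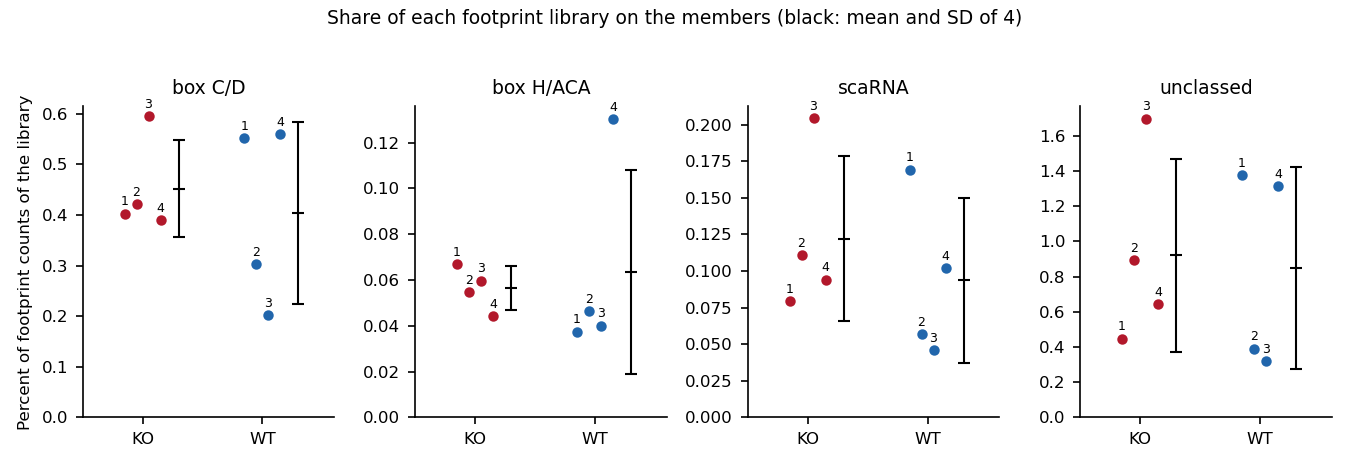
Percent of each footprint library's gene counts on the members of each class, in KO (left) and WT (right), with points numbered by library and black bars for the mean and SD of 4 libraries. KO library 3 is the highest for box C/D at 0.595%, and WT library 4 for box H/ACA at 0.130%.

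Box C/D members had 6.01, 7.69, 9.97 and 8.83 times the counts of box H/ACA members in KO libraries 1 to 4, against 14.7, 6.52, 5.04 and 4.30 times in WT libraries 1 to 4. On the log2 scale this was 3.00 ± 0.313 in KO and 2.75 ± 0.789 in WT, with overlapping groups. By name box C/D has 35 members and box H/ACA 7. The ratio leaves out the 41 unclassed members, which held 58.5% of member counts, so it covers named Snord and Snora genes only. The difference of the classes' median log2 CPM, which does not sum members, was −0.067 in KO and −0.021 in WT. Per kilobase of annotated length the log2 ratio of summed levels was 3.52 in KO and 3.31 in WT.

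The difference between libraries labelled KO and WT was tested gene by gene over the whole table. With edgeR's quasi-likelihood test none of 8476 genes tested passed an adjusted p of 0.05 in the footprint libraries (0% called), and 468 genes (5.52%) had an unadjusted p under 0.05. Of the 92 members 74 passed the filter on low counts, and none was called (lowest adjusted p 0.638). DESeq2 on the same genes called 4 genes (0.0472%), 1 of them a member, Snord90. DESeq2 with its default filter called 0 of 22276 genes, and edgeR with total counts in place of TMM called 3 genes and 0 members. Without the filter on low counts edgeR called 86 of 22286 genes (0.386%), 11 of them members.

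Fitted differences of the tested box C/D members were positive in 23 of 28, that is 82.1%, with a median of 0.27 on the log2 scale, against 49.6% and a median of −0.00 over all genes tested. For scaRNA members 8 of 8 were positive (median 0.47), for box H/ACA members 4 of 6 (0.15) and for unclassed members 15 of 32 (−0.20). With no filter on low counts 25 of 35 box C/D members were positive. These counts depended on single libraries. Without KO library 1, 16 of 28 box C/D members (57.1%) and 36 of 74 members (48.6%) were positive, and scaRNA members were positive in 6 of 8, as they also were without KO library 3 and without WT library 2. Box C/D members were positive in 18 of 28 without WT library 3 and in 20 of 29 without WT library 1. Box H/ACA members were positive in 2 of 6 without KO library 1 (median −0.18) or WT library 1, and in 6 of 6 without WT library 4 (median 0.81) or KO library 2. With total counts in place of TMM, box C/D members were positive in 17 of 28 (60.7%, median 0.05) and scaRNA members in 7 of 8 (median 0.22), while 30.3% of all genes were positive and their median moved to −0.15. MicroRNAs made up 60.3% of the counts of KO library 1, the highest share of any library, and its TMM factor of 0.662 was the lowest. Whether these play a part in the class medians was not tested.

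An unadjusted p under 0.05 was found for 12 members higher in KO and 3 lower, where the whole table gave 2.88% higher and 2.64% lower. Box C/D members gave 6 higher and 0 lower, scaRNA members 2 and 0, unclassed members 4 and 3, and box H/ACA members 0 and 0. With a library left out these counts moved, and so did those over all genes tested (244 of 8476 higher with all libraries). Without KO library 3, 3 of 29 box C/D members and 8 of 75 members were on the higher side, against 251 of 9002 genes. Leaving out KO library 2 gave 11 of 27 box C/D members and 20 of 74 members, against 344 of 8623 genes. All KO libraries lay above all WT libraries for Snord90, Snord123 and Gm22888, the last of which was not tested, and for no member did they all lie below. Over the genes tested the shares were 1.57% above and 2.04% below. Among unclassed members, split after their values were seen, those up to 100 bases had 10 positive and 6 negative differences, and the longer ones 5 positive and 11 negative.

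**Figure D4:**
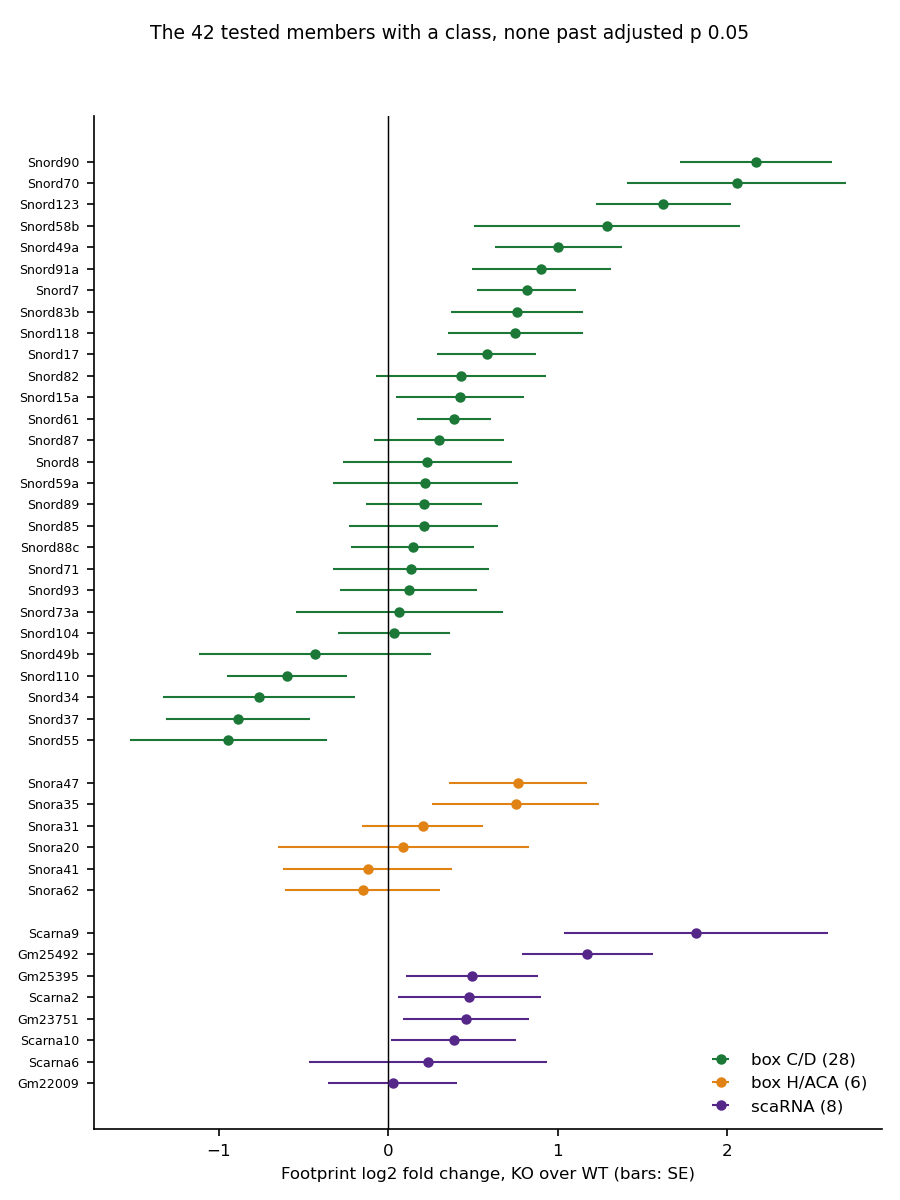
Footprint log2 fold change of KO over WT (bars: SE) for the 42 tested members with a class, sorted within box C/D, box H/ACA and scaRNA. Snord90 is the highest at 2.17 and Snord55 the lowest at −0.94, and none passed an adjusted p of 0.05.

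Snord90 had the lowest p of all members. It lies in Rc3h2, which encodes an RNA-binding ubiquitin ligase (chromosome 2, 37400047 to 37400157, minus strand). It had 18.3, 14.2, 11.5 and 9.81 CPM in KO libraries 1 to 4, against 5.10, 3.41, 1.10 and 2.64 CPM in WT libraries 1 to 4. The groups did not overlap, and the log2 fold change was 2.17 ± 0.45 SE (unadjusted p = 0.000298, edgeR adjusted p = 0.638). With DESeq2 on the same genes its adjusted p was 0.0356 and with DESeq2's default filter 0.245, while edgeR without a filter gave an adjusted p of 0.0237. Leaving out each library in turn gave log2 fold changes of 1.89 to 2.46. These values rest on 88 counts over the 8 libraries.

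Snord123, in the noncoding host Snhg18 (chromosome 15, 32241853 to 32241923, minus strand), had 32.98, 13.7, 17.3 and 21.6 CPM in KO libraries 1 to 4, against 7.36, 8.37, 8.05 and 3.39 CPM in WT libraries 1 to 4. Every KO library exceeded every WT library, and the log2 fold change was 1.62 ± 0.40 SE (unadjusted p = 0.00121, edgeR adjusted p = 0.863). Snord70, within Nop58, the gene of a box C/D core protein (chromosome 1, 59691934 to 59692020, plus strand), had 48.9, 27.4, 149.9 and 69.7 CPM in KO libraries 1 to 4, against 48.7, 5.89, 5.49 and 11.7 CPM in WT libraries 1 to 4. KO libraries 3 and 4 were clearly above every WT library, while WT library 1 was level with KO library 1 and above KO library 2. Its fitted difference of 2.06 ± 0.65 SE on the log2 scale had an edgeR adjusted p of 0.863 and was 1.52 without KO library 3 and 3.18 without WT library 1.

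Gm23547, an unclassed member in Phb2, a prohibitin gene, had 468, 169.9, 438 and 277 CPM in KO libraries 1 to 4, against 181, 143, 154 and 237 CPM in WT libraries 1 to 4. KO library 2 fell within the WT range, and the log2 fold change was 0.91 ± 0.28 SE (edgeR adjusted p = 0.863). For Gm25492 it was 1.17 ± 0.39 SE (edgeR adjusted p = 0.863). Scarna9 differed by 1.82 ± 0.78 SE on the log2 scale, at an edgeR adjusted p of 0.881, and by 0.81 without KO library 3 and 3.35 without WT library 1.

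**Figure D5:**
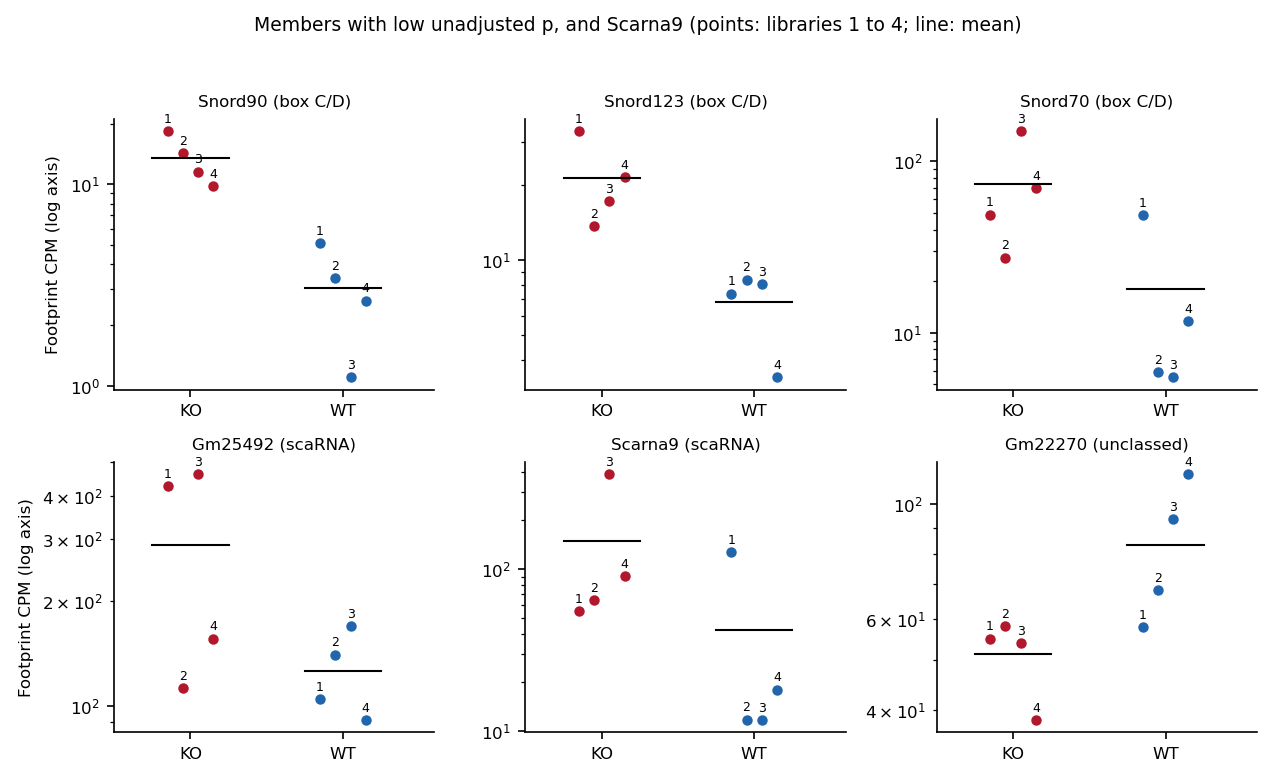
Footprint CPM (log axis) of 5 members with low unadjusted p and of Scarna9 in KO (left) and WT (right) libraries, with points numbered by library and a line at the mean. KO and WT points are apart for Snord90 and Snord123 and overlap for the other 4.

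The 5 members with the lowest p on the lower side were Gm22270, Gm24119, Gm24507, Gm25129 and Snord37. Gm22270, in Rpl5, a large-subunit protein gene, had 54.97, 58.1, 53.8 and 38.3 CPM in KO libraries 1 to 4, against 57.8, 68.2, 93.3 and 114 CPM in WT libraries 1 to 4. KO library 2 was level with WT library 1 and the other KO libraries lay below every WT library, and the log2 fold change was −0.70 ± 0.22 SE (unadjusted p = 0.00776, edgeR adjusted p = 0.863). Gm24507, in Tmem167, had 40.3, 22.2, 24.99 and 31.4 CPM in KO libraries 1 to 4, against 11.9, 41.2, 58.9 and 153 CPM in WT libraries 1 to 4, and its log2 fold change of −1.19 ± 0.55 SE became −0.36 without WT library 4. Snord37, in the elongation factor gene Eef2, averaged 5.90 ± 2.31 CPM in KO libraries and 10.96 ± 3.16 CPM in WT libraries, and its fitted difference was −0.89 ± 0.42 SE on the log2 scale, at an edgeR adjusted p of 0.881. Gm24119 (in Slc25a3) and Gm25129 (in Snhg11) had −0.72 ± 0.32 and −0.998 ± 0.48 SE, with edgeR adjusted p of 0.881 for both.

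Gm25128, Snord55 and the chromosome 12 gene Gm23736 were among the members that passed without the filter on low counts. Their log2 fold changes with the filter were 0.87 ± 0.40, −0.94 ± 0.58 and −1.02 ± 0.60 SE.

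Members of one host could differ widely in level and in spread. The 10 hosts with more than 1 member hold 22 members in all. Nop58 carries Snord70 at 528 and Snord11 at 61.04 CPM per kilobase. Cep295 carries Scarna9, which varied 32.99-fold over the 8 libraries, and Gm24339, which varied 3.27-fold. 2410006H16Rik carries Snord49a, Snord49b and Snord65 at 2534, 549 and 66.95 CPM per kilobase. In Rpl13a, Snord34 stood at 129 and Snord32a at 64.8 CPM per kilobase.

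Of the 72 host genes 60 are protein-coding, and 10 are ribosomal protein genes that carry 16 members. In 40 of the 72 the members held more footprint counts than the host gene's own entry in the table. Rc3h2, by contrast, had 417 footprint counts and Snord90 88. In the mRNA libraries 70 hosts were tested. None passed an adjusted p of 0.05 and 8 had an unadjusted p under 0.05. The whole table gave 0% called of 16062 genes and 10.7% with an unadjusted p under 0.05. Host differences were positive in 27 and negative in 43, where 48.6% of all genes were positive, with a median of −0.03 on the log2 scale and a lowest edgeR adjusted p of 0.323. In the footprint libraries 58 hosts were tested and none was called, with 30 positive and 28 negative.

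No host of the members with low p passed an edgeR adjusted p of 0.05. Rc3h2 mRNA averaged 81.0 ± 14.5 CPM in KO and 69.8 ± 7.42 CPM in WT libraries (SD, n = 4 each; log2 fold change 0.22 ± 0.12 SE, edgeR adjusted p = 0.570). Snhg18 mRNA averaged 1.74 ± 0.194 CPM in KO and 2.13 ± 0.238 CPM in WT libraries (edgeR adjusted p = 0.670). Rpl5 mRNA, whose member Gm22270 had a negative difference, averaged 207 ± 7.91 CPM in KO and 236 ± 7.71 CPM in WT libraries, also a negative difference (log2 fold change −0.19 ± 0.06 SE, unadjusted p = 0.00836, edgeR adjusted p = 0.355). Nop58 mRNA averaged 49.3 ± 2.00 CPM in KO and 53.4 ± 8.62 CPM in WT libraries (edgeR adjusted p = 0.749). Bud23 mRNA averaged 19.4 ± 1.16 CPM in KO and 18.9 ± 1.72 CPM in WT libraries (log2 fold change 0.04 ± 0.09 SE, edgeR adjusted p = 0.922). Bud23 footprints averaged 10.2 ± 4.23 CPM in KO and 19.4 ± 5.46 CPM in WT libraries. Their fitted log2 difference was −0.93 ± 0.37 SE with an edgeR adjusted p of 0.881, while the scaRNA Gm25492 had a positive one.

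Genes of the snoRNA machinery were read from the mRNA and footprint fits. Of 27 listed symbols for core proteins, assembly, traffic and end processing, 26 are in the table, among them Snu13. The symbol Nhp2l1 is not, which does not show that a gene is missing. All 26 were tested in the mRNA libraries and 19 in the footprint libraries, and none was called in either. Their mRNA differences were positive for 13 and negative for 13, with a median of 0.01 on the log2 scale. Fbl, the box C/D methyltransferase, had 21.7 ± 1.85 CPM of mRNA in KO and 22.2 ± 1.90 CPM in WT libraries. Dkc1, the box H/ACA pseudouridine synthase, had 29.0 ± 1.74 CPM in KO and 28.3 ± 2.47 CPM in WT libraries. Coil, the marker protein of Cajal bodies, had 24.8 ± 1.62 CPM in KO and 22.7 ± 0.251 CPM in WT libraries. Exosc10, a nuclear exosome nuclease that trims snoRNA ends, had 34.3 ± 1.64 CPM in KO and 38.0 ± 1.32 CPM in WT libraries (edgeR adjusted p = 0.474). All KO libraries lay below all WT libraries for Exosc10, as they did for 2.71% of all genes tested in the mRNA libraries.

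Of 20 listed noncoding host genes 18 are in the table and 16 were tested in the mRNA libraries. None was called, and differences were positive for 3 and negative for 13, where 48.6% of all genes were positive. Gas5, a host of many box C/D snoRNAs, had 44.1 ± 4.65 CPM of mRNA in KO and 51.9 ± 2.69 CPM in WT libraries, without overlap (log2 fold change −0.23 ± 0.09 SE, edgeR adjusted p = 0.400). Snhg1 had 4.74 ± 0.440 CPM in KO and 6.03 ± 0.577 CPM in WT libraries, also without overlap (edgeR adjusted p = 0.436). All KO libraries lay below all WT libraries for 2.71% of all genes tested in the mRNA libraries. Among 7 nuclear RNAs 6 were tested in the footprint libraries and none was called by edgeR, with 3 positive and 3 negative differences and an unadjusted p under 0.05 for 2, Miat and Rian. Miat footprints averaged 14.4 ± 5.88 CPM in KO and 29.8 ± 11.5 CPM in WT libraries, without overlap (log2 fold change −1.15 ± 0.36 SE, edgeR adjusted p = 0.863), and edgeR without the filter on low counts called it. Rn7sk footprints averaged 49.2 ± 22.4 CPM in KO and 27.8 ± 14.6 CPM in WT libraries, and Malat1 257 ± 61.1 CPM in KO and 283 ± 83.7 CPM in WT libraries.

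In the mRNA libraries the members were nearly unseen. Without TMM scaling they took 9.87 to 11.3 CPM in KO and 10.6 to 12.1 CPM in WT mRNA libraries, against 9967 to 25556 in KO and 6076 to 21332 in WT footprint libraries. Of 1465 counts on members in all 8 mRNA libraries, 625 were on Snord91a, in Tsr1, a ribosome assembly gene, and 114 on Snord104. No mRNA count fell on 27 members, and 3 passed the filter of the mRNA fit. Snord91a had 48.9, 13.7, 23.1 and 25.5 CPM in KO libraries 1 to 4, against 19.3, 20.5, 9.52 and 8.67 CPM in WT libraries 1 to 4 in the footprint libraries, with overlapping groups and an edgeR adjusted p of 0.881.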

How the data were processed

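Footprint and mRNA libraries of brain from 4 KO and 4 WT samples were analysed. The authors deposited raw counts per gene. TopHat2 and the build mm10 are named in the submitters' processing notes, without a version. The counting program and the annotation are not given in the sources used here. Coordinates, biotypes and gene lengths are those of the deposited table. The deposited RPKM tables were not used.

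Genes with low counts were removed (filterByExpr, default minimum count 10), and KO was compared with WT by edgeR 4.0.16 (R 4.3.3) with TMM scaling and the quasi-likelihood test, two-sided, with Benjamini-Hochberg adjustment over all genes and a threshold of 0.05. A CPM is a count over the TMM-scaled library size. A host is the gene on the same strand that contains the member. Alternatives were DESeq2 1.42.0, other scalings and filters, the replicate number as a block and leaving out each library. The total-count scaling, DESeq2 on the genes edgeR tested and RefSeq symbols (GRCm38.p6) for the classes were added after seeing the data.

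Members, lists and classes were chosen with earlier results of these data known. Genes were named if they were among the 10 highest box C/D or 6 highest box H/ACA members by mean CPM, were scaRNA members, were among the 5 members of lowest unadjusted p in a direction, passed in any tool, lay next to the count threshold, belonged to imprinted families or were hosts of these. The lists covered brain and other-tissue markers, nuclear RNAs, snoRNA machinery and noncoding hosts. No sequence of a member was used. Depth limits what can be seen: a count of 3 corresponds to 0.930 to 5.77 CPM, depending on the footprint library, and this covers counting error only.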

Additional observations from a re-analysis of the deposited data

Results flagged for a closer look

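In groups of 4 libraries, 11 of 104 sets of values held a library that stood apart by Dixon's test. Chance flags about 1 of 20 groups where values are independent and normally distributed. These sets are not on a log scale, share libraries and include members named for low p. So 11 of 104 cannot be set against that rate. KO library 3 was high for Scarna9 (386 CPM), for AF357341 (6439 CPM) and for the share of counts on box C/D members (0.595%). KO library 1 was high for Snora47, at 72.1 CPM. WT library 4 was high for Snora62 (223.9 CPM), Gm23736 (393 CPM), Gm22486 (866 CPM) and the share on box H/ACA members (0.130%). WT library 1 was high for Scarna9 (126.9 CPM) and Snord70 (48.7 CPM), and WT library 3 was low for Snord37, at 6.22 CPM. Of the 92 members 26 had their highest CPM in KO library 3, 23 in KO library 1 and 26 in WT library 4, leaving few for the other 5 libraries.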

How the results depend on the processing

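With edgeR, 0 footprint genes and 0 members were called (468 genes and 15 members had an unadjusted p under 0.05). DESeq2 on the genes edgeR tested gave 4 genes and 1 member, edgeR without a filter on low counts 86 genes and 11 members, and total-count scaling 3 genes and 0 members. Leaving out each library gave 0 to 0 of both. In the mRNA libraries 0 genes were called by edgeR, 94 by DESeq2 with either filter, 24 without a filter and 0 to 2 with a library left out. The cause of these differences was not tested.

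Leaving out each library moved the median log2 fold change from 0.18 to 0.73 for box C/D, −0.18 to 0.81 for box H/ACA, 0.22 to 0.87 for scaRNA and −0.37 to 0.31 for unclassed members. The unclassed median was also 0.16 with DESeq2, 0.13 with a minimum count of 5 and 0.10 without a filter. Relative to counts on protein-coding genes, box C/D members stood at 1.14 ± 0.376% in KO and 0.848 ± 0.380% in WT (SD, n = 4 each). Box H/ACA members stood at 0.145 ± 0.0595% and 0.146 ± 0.120%, and scaRNA members at 0.301 ± 0.149% and 0.188 ± 0.0778%. Unclassed members stood at 2.22 ± 1.38% and 1.76 ± 1.17%. Genotypes overlapped in each class. Without unclassed members the log2 ratio of box C/D to box H/ACA was −0.067 in KO and −0.021 in WT as a difference of medians. It was 3.97 in KO and 3.69 in WT when the most abundant member of each class was also left out. Per length it was 3.52 in KO and 3.31 in WT, again without unclassed members.

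With a library left out, 30 of the 74 tested members changed sign in at least 1 fit. Those named in the text ran from −0.37 to 1.42 (AF357341), −0.16 to 0.88 (AF357428), −0.21 to 0.47 (DQ267102), −0.23 to 0.17 (Gm22009), −0.94 to 0.49 (Gm22486), −1.32 to 0.31 (Gm23736), −0.52 to 0.0057 (Gm25934), −0.12 to 1.16 (Scarna6), −0.33 to 0.92 (Snora20), −0.21 to 0.55 (Snora31), −0.43 to 0.75 (Snora41), −0.40 to 0.69 (Snora62), −0.085 to 0.85 (Snord8), −0.0082 to 0.85 (Snord85) and −0.22 to 0.46 (Snord89). Total-count scaling turned the sign of 11 of the 74, 6 of them box C/D, and among those named in the text of DQ267102 (−0.11), Gm22009 (−0.14), Snora31 (−0.014) and Snord85 (−0.059), and without a filter 3 members changed sign, among them Gm22009 (−0.011).

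Same-numbered KO and WT libraries did not deviate together (footprint correlations −0.24, 0.06, −0.04 and 0.04), so the number was not taken as a pairing. With the replicate block 0 footprint genes and 0 members were called, the box C/D median was 0.35, and 3 members changed sign, among them Snora41 (0.19) and Snora62 (0.14). The low depth of the KO footprint libraries and the spread between libraries limit what can be seen of members with few counts.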
